A study of Mus musculus with 8 samples.

Results

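The genes described here are those of the mitochondrial respiratory chain in mouse embryonic stem (ES) cells. They were taken as every probe set whose single gene symbol begins with Ndufa, Ndufb, Ndufc, Ndufs, Ndufv, Uqcr, Cox4 to Cox8 or Atp5, or is Sdha, Sdhb, Sdhc or Sdhd. The rule found 179 of 45101 probe sets, for 90 of the 18194 genes with a symbol of their own. Complex I had 44 genes, 8 of them Ndufaf assembly factors, complex II had 4, complex III 8, complex IV 17 and complex V 17. Of the 90 genes, 86 passed the filter on dim genes and were tested, and Cox7b2, Cox7c, Cox8b and Ndufb4 did not pass it. Another 10 probe sets carried several symbols, such as Ndufs6 with Ndufs6b or Ndufb4 with Ndufb4b and Ndufb4c, and were left out. A gene under the filter had only dim probe sets under its own symbol, which does not show that the gene is unexpressed. The cells came in 4 groups of 2 arrays each. Rbp2f/f ES cells and Rbp2-/- ES cells were grown in LIF (leukemia inhibitory factor), which holds mouse ES cells undifferentiated, and cells of each genotype were also collected after 6 days without it. Rbp2 was taken to mean retinoblastoma-binding protein 2, now named KDM5A (gene Kdm5a), which removes methyl groups from lysine 4 of histone H3. The labels do not say how the alleles were made, whether each genotype is 1 clone, or which cultures the replicates came from, so p-values measure only the spread between these samples, which may be partly technical.

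The respiratory chain passes electrons from NADH (complex I) and succinate (complex II) through ubiquinone, complex III and cytochrome c to oxygen at complex IV. Complexes I, III and IV pump protons across the inner mitochondrial membrane, and complex V, the ATP synthase, makes ATP from the return flow. Most subunits are encoded in the nucleus and a few in mitochondrial DNA, and complex I needs dedicated assembly factors that are not part of the finished enzyme. Undifferentiated ES cells rely strongly on glycolysis, and mitochondria mature as the cells differentiate. RBP2 has been reported to bind promoters of nuclear genes for mitochondrial proteins, which makes this set a natural question for its loss.

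Intensities were brought to the same distribution on all 8 arrays by quantile normalization. A level below is such a normalized intensity, and levels are compared only within a probe set. A log2 difference is the difference between group means of log2(intensity + 16), given with its standard error (SE), and it understates the change of dim genes. A gene is called where limma's adjusted p over all 10916 tested genes was under 0.05. As deposited, the arrays were not at one level: the 2% trimmed mean was 77.5 for LIF-grown Rbp2-/- replicate 2, against 110.5 to 128.4 on the other arrays. On that array the respiratory chain genes lay at a median of -0.48 log2 units from their 8-array means as deposited and 0.01 after normalization, and all tested genes lay at -0.46 as deposited. Deposited 18S probe intensities were 237.8 and 213.4 for LIF-grown Rbp2f/f cells and between 33.7 and 106.2 on the other 6 arrays, so they moved with the groups, and their part in the results was not tested. Replicate arrays correlated at 0.982 to 0.996 over the 86 genes and at 0.958 to 0.982 over all tested genes. Kdm5a, the targeted gene, read 134 and 168 (Rbp2f/f) and 34.1 and 43.5 (Rbp2-/-) before withdrawal, and 209.6 and 225 (Rbp2f/f) and 95 and 66.8 (Rbp2-/-) after it. It was lower in both Rbp2-/- groups on every array, by a log2 difference of -1.60 ± 0.22 (SE) with LIF (adjusted p = 0.0707) and -1.28 ± 0.22 without LIF (adjusted p = 0.114). These values come from the brightest of its 6 probe sets, and whether that probe set lies in the deleted part is not given. Without LIF all 10 pluripotency markers fell in both genotypes, their summed intensity going from 18840 to 23520 with LIF to 3515 to 4753 without. The summed intensity of 9 mesoderm and endoderm markers was higher after withdrawal. It read 429.8 and 336.3 (Rbp2f/f) and 806.9 and 727.1 (Rbp2-/-) before withdrawal, and 3005 and 2509 (Rbp2f/f) and 4438 and 4473 (Rbp2-/-) after. Hand1 alone read 1105 and 456 (Rbp2f/f) and 3480 and 1725 (Rbp2-/-) after withdrawal, so the higher sum in Rbp2-/- leaned on this gene. Between genotypes, 8 of the 9 markers were higher in Rbp2-/- with LIF and 1 lower. Without LIF 4 were higher and 5 lower, with a median log2 difference of -0.05. All 9 markers had a positive withdrawal difference in both genotypes. Called higher were 8 in Rbp2f/f and 5 in Rbp2-/-, against 14% and 7.28% of all tested genes, and none was called between genotypes. On each LIF array 2 to 5 of the 9 were under the filter level of 28.3. Sox17, for 1, read 9.85, 6.24, 13.0 and 12.3 with LIF and passed the filter through the arrays without LIF. For such markers the filter itself favoured a higher call, so the comparison with all tested genes says little. The sum of 10 fibroblast markers was 2978 and 2275 (Rbp2f/f) and 3649 and 5148 (Rbp2-/-) before withdrawal, and between 7918 and 8464 on the 4 arrays after it. Most of this sum was Fn1, at 2334 and 1893 (Rbp2f/f) and 2820 and 4384 (Rbp2-/-) before withdrawal. After it Fn1 read 6783 and 6986 (Rbp2f/f) and 4755 and 6608 (Rbp2-/-). Of the 8 tested, 6 had a positive withdrawal difference in Rbp2f/f and 7 in Rbp2-/-. Called higher were 5 in Rbp2f/f and 2 in Rbp2-/-, against 14% and 7.28% of all tested genes. The same limit holds for Pdgfrb (12.4 and 14.3) and Postn (21.5 and 16.2), which were under the filter level in LIF-grown Rbp2f/f. Lum and Dcn did not pass the filter. Col1a2 differed by 1.41 and Fn1 by 0.74 between genotypes with LIF, neither called (adjusted p = 0.168 and 0.226). Of the 8 tested, 6 were higher in Rbp2-/- with LIF and 2 lower. The part of these cell types in the results below was not tested. In bulk RNA, fewer cells of a type and less RNA per cell cannot be told apart.

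Promoter sequences show what the genes share upstream. NRF1, GABP and YY1 are transcription factors known to act at nuclear genes for respiratory chain subunits, and the DNA-binding domain of RBP2 has been reported to prefer CCGCCC. RefSeq promoter windows of the GRCm38.p6 assembly, running from 250 bases before to 50 bases after a gene's start, were found for 74 of the 90 genes, 79 windows in all. The NRF1 motif, a palindrome of 10 bases that stands in capitals in the windows printed next, lay in 6 of these 79 windows (7.59%), against 2.09% of 11362 windows of tested genes and 0.971% of all 32851 windows. With any base allowed at its sixth position, searched on both strands and including the exact motif, it lay in 18 windows (22.8%) against 10.1% and 4.6%. The other motifs were searched on both strands. The YY1 motif AAGATGGCG lay in 7 windows (8.86%) against 3.1% and 1.4%. Of these 7, 5 belong to complex I, which supplied 41 of the 79 windows. The ETS motif CCGGAAG, the core that GABP recognises, lay in 19 windows (24.1%) against 17.6% and 8.86%. CCGCCC went the other way, in 36 windows (45.6%) against 63.9% of the windows of tested genes, and against 35.7% of all windows. The median GC content was 59%, 61.3% and 52.7% in the same order. Windows of 1 gene overlap, and these shares describe letters only, not binding.

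The 6 exact NRF1 matches are shown with the motif in capitals, each as 30 bases on the gene's strand, because Nrf1 itself fell on LIF withdrawal in Rbp2f/f (below). They lie at chr4:24897960-24897989 (plus strand), chr2:140170652-140170681 (plus), chr9:108936668-108936697 (plus), chr5:115349101-115349130 (minus), chr15:102671070-102671099 (minus) and chr5:108434430-108434459 (minus), in the order printed.
Ndufaf4: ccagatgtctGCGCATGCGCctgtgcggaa
Ndufaf5: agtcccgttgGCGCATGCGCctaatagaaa
Uqcrc1: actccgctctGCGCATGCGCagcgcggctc
Cox6a1: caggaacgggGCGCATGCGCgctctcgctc
Atp5g2: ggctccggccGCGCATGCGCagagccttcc
Atp5k: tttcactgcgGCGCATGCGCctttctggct
The motif begins at base 17 after the start in Ndufaf5 and 31 in Uqcrc1, and before the start in the other 4.

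Upstream sequences follow for the called assembly factor Ndufaf2 (chr13:108158626-108158875, minus strand) and the called ATP synthase subunit Atp5md (chr19:47090648-47090897, minus strand), with CCGCCC on the opposite strand, read as GGGCGG, in capitals.
Ndufaf2: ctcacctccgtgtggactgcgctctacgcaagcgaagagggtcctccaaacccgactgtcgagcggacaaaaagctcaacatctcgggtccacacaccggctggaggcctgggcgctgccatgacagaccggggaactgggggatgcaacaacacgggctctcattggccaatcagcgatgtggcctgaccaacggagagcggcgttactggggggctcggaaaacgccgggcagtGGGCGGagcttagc
Atp5md: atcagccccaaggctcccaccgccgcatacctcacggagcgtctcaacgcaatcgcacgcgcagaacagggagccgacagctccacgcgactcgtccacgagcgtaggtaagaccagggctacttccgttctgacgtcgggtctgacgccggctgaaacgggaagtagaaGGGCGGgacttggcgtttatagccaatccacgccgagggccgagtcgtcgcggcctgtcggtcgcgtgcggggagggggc
The capital letters begin 14 bases before the start in Ndufaf2 and 80 bases before it in Atp5md.

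LIF withdrawal asked what 6 days of differentiation did to the chain in each genotype. In Rbp2f/f cells 4 of the 86 genes were called, in a comparison that called 27.2% of all tested genes. Ndufa4l2 rose, and the assembly factors Ndufaf2 and Ndufaf5 and the accessory subunit Ndufb1 fell. In Rbp2-/- cells 4 of 86 were called against 15.5% of all tested genes, and all 4 rose (7.28% of tested genes called higher): Ndufa4l2, Atp5md, Ndufa13 and Ndufa2. With intensities as deposited, in which 1 LIF-grown Rbp2-/- array is dim, the calls were 2 in Rbp2f/f (20.5% of all tested genes) and 14 in Rbp2-/- (22.9%). Leaving out each array in turn gave 1 to 8 and 1 to 5 calls, with the arrays named in the closing section. The median log2 difference over the 86 genes was 0.04 in Rbp2f/f, against -0.02 over all tested genes, and 0.08 in Rbp2-/-, against 0.00. Differences beyond 0.5 log2 units were found in 8 and 10 of 86 genes, against 4568 and 3548 of all 10916. For 89.5% of the 86 genes in Rbp2f/f and 88.4% in Rbp2-/-, the 95% confidence interval lay within 1 log2 unit of 0, a factor of 2 either way. Over all tested genes the shares were 55.1% and 62.9%. The median SE was 0.167 for the 86 genes and 0.226 for all tested genes, so the intervals of the chain genes were also narrower. By complex in Rbp2f/f, the medians were -0.01 for complex I, 0.24 for II, 0.14 for III, 0.10 for IV and -0.06 for V. In Rbp2-/- they were 0.07, 0.09, 0.12, 0.09 and 0.04.

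**Figure D1:**
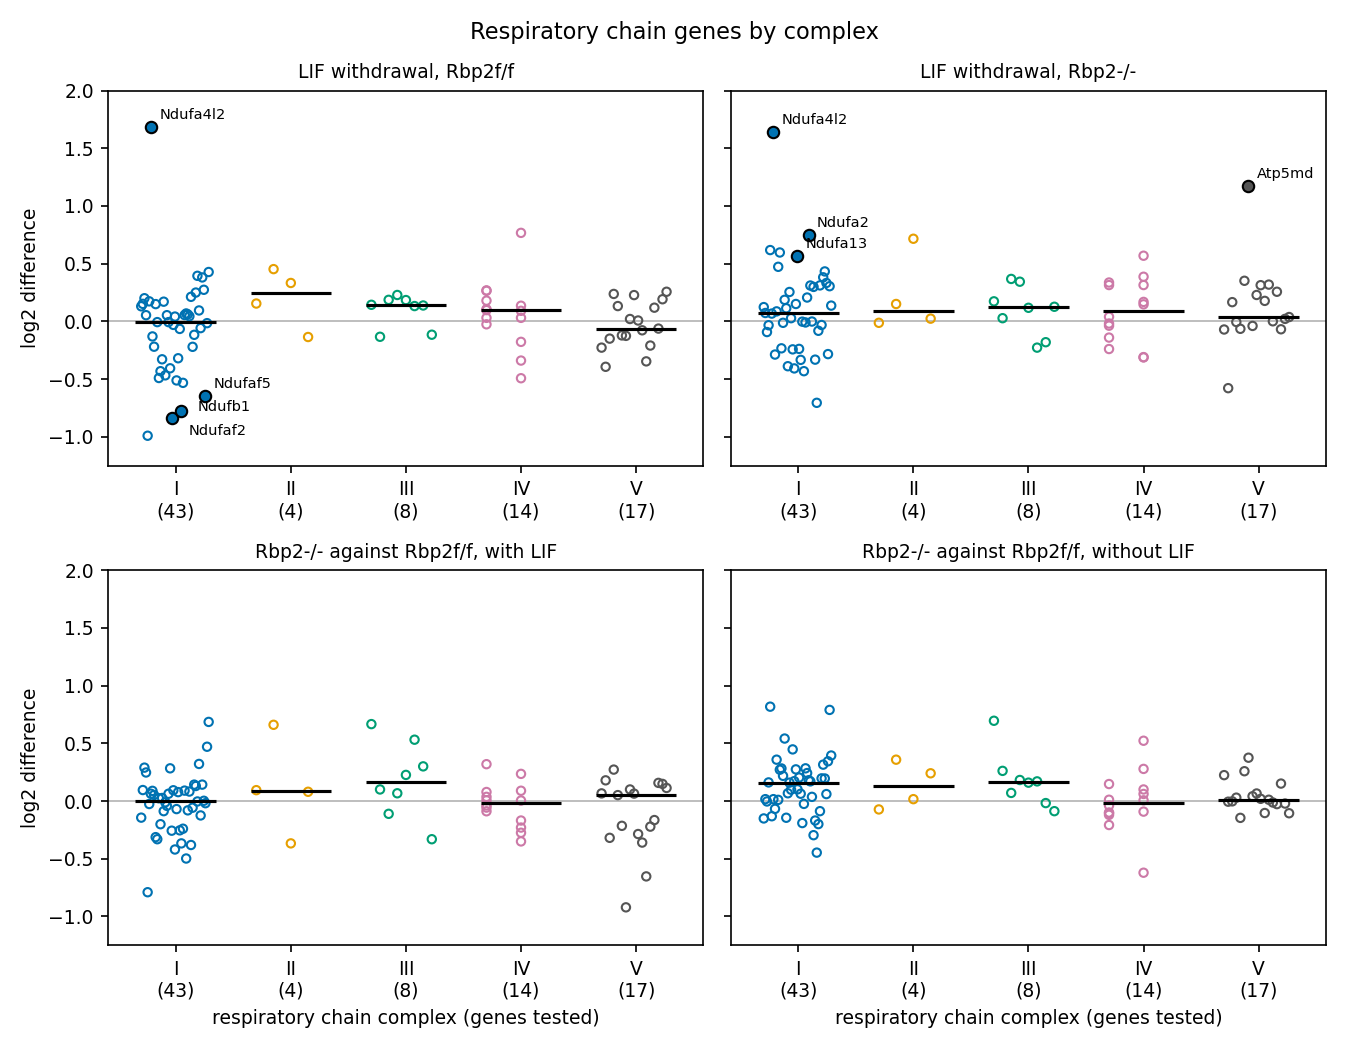
Log2 differences of the tested respiratory chain genes by complex (x axis, number of genes in brackets) in 4 comparisons; each circle is 1 gene, filled and named circles are called at adjusted p under 0.05, and bars are medians. Called genes appear only in the withdrawal panels, 7 of them in complex I and 1 in complex V counting both panels, while the other genes crowd around 0.

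Rbp2 loss was compared at each medium. No gene of the chain was called with LIF or without LIF (background 0% of tested genes in both), and limma called none of the 10916 tested genes in either. That background depended on the setting: with intensities as deposited 28 genes (0.257%) were called with LIF and 3 (0.0275%) without, Kdm5a among the former (adjusted p = 0.0218), and still none of the chain. Leaving out LIF-grown Rbp2-/- replicate 1 gave 24 calls with LIF, and leaving out withdrawn Rbp2-/- replicate 2 gave 34 without, again none of the chain. In the fit to normalized intensities, 13 and 5 of the 86 genes, and 1431 and 1553 of all, had an unadjusted p under 0.05. The median log2 difference was 0.02 with LIF and 0.06 without, against -0.01 and -0.01 over all tested genes. Higher in Rbp2-/- were 53.5% of the 86 genes with LIF and 65.1% without, against 48.8% of all tested genes in each. Without LIF this held for 31 of 43 genes of complex I: 7 of 8 assembly factors (median 0.28) and 24 of 35 subunits (median 0.07). On the Rbp2-/- arrays without LIF, complex I lay at a median of 0.20 and -0.01 from its 8-array means, against 0.003 and -0.07 in Rbp2f/f. All 86 genes lay at 0.12 and 0.01 in Rbp2-/- and at 0.01 on both Rbp2f/f arrays. These shifts without LIF therefore leaned on Rbp2-/- replicate 1. The medians for complexes I to V were -0.004, 0.09, 0.16, -0.02 and 0.05 with LIF. Without LIF they were 0.16, 0.13, 0.17, -0.02 and 0.01. The 95% interval lay within 1 log2 unit of 0, a factor of 2 either way, for 93.0% of the 86 genes with LIF and 90.7% without. Over all tested genes the shares were 77.1% and 76%, with a larger median SE (0.226 against 0.167 for the 86 genes). With intensities as deposited they were 65.1% and 89.5% of the 86 genes, and 56.9% and 70.1% of all. These intervals rest on 2 arrays a group and measure only the spread between these samples. In the normalized fit the interval lay within 0.5 log2 units of 0 for 38 and 41 of the 86 genes.

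Within complex I, Ndufa4l2 had the largest withdrawal difference of the 86 genes in both genotypes. It encodes a protein like NDUFA4 and is known as a gene that hypoxia-inducible factor turns on. Before withdrawal its level was 15.1 and 12.6 (Rbp2f/f) and 24.4 and 7.96 (Rbp2-/-), and after it 69.4 and 91.4 (Rbp2f/f) and 76.0 and 86.0 (Rbp2-/-). Every array without LIF was above every array with LIF, and the genotypes overlapped within each medium. The mean level rose 5.82 times in Rbp2f/f (log2 difference 1.69 ± 0.29, limma adjusted p = 0.00406) and 5.0 times in Rbp2-/- (1.64 ± 0.29, adjusted p = 0.0064). All 4 arrays with LIF lay under the filter level of 28.3, so the gene passed the filter through the arrays where it was high, and the ratios rest on dim values. Its relative Ndufa4, whose protein was first assigned to complex I and later found in complex IV, read 1596 and 1867, 2515 and 3081, 2199 and 2462, and 3220 and 2912 in the same order of groups. Both Rbp2-/- groups were above their Rbp2f/f counterparts on every array, by 0.69 ± 0.15 with LIF (adjusted p = 0.15) and 0.39 ± 0.15 without (adjusted p = 0.282), neither of them called.

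The Ndufaf assembly factors, which build complex I and leave it, lay on 1 side in Rbp2f/f. All 8 had a negative log2 difference on LIF withdrawal, with a median of -0.51, and 2 of them were called lower (background 13.2% called lower). Ndufaf2, a chaperone for a late step, read 342 and 296 with LIF and 189 and 156 without (-0.84 ± 0.19, adjusted p = 0.0117). Ndufaf5, which hydroxylates an arginine of a core subunit, read 117 and 103 with LIF and 63.2 and 65.4 without (-0.65 ± 0.18, adjusted p = 0.0294). Neither gene's arrays overlapped between media. The other 6 lay between -0.99 (Ndufaf6, adjusted p = 0.0696) and -0.12 (Ndufaf4), and none of these was called. In Rbp2-/- 7 of 8 were negative with a median of -0.24, and none was called (background 8.24% called lower). There Ndufaf2 read 288 and 242 with LIF and 188 and 202 without, and Ndufaf5 read 115 and 101 with LIF and 88.9 and 83.0 without. The difference between the genotypes was not called for either gene (0.43 ± 0.27, adjusted p = 0.565, and 0.36 ± 0.26, adjusted p = 0.616). Ndufaf6 spread widely, at 200.4 and 366 (Rbp2f/f) and 191 and 118 (Rbp2-/-) before withdrawal, and 142 and 117 (Rbp2f/f) and 331 and 172 (Rbp2-/-) after it.

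Ndufb1, an accessory subunit of the membrane arm, fell in Rbp2f/f from 161 and 122 to 74.6 and 76.1 (-0.77 ± 0.25, adjusted p = 0.0487). In Rbp2-/- its arrays overlapped, at 83.7 and 131 with LIF and 61.4 and 88.2 without. Ndufa13, an accessory subunit also known as GRIM-19, read 949 and 1068 in Rbp2-/- with LIF and 1538 and 1454 without (0.56 ± 0.14, adjusted p = 0.0269). In Rbp2f/f it read 1424 and 1285 with LIF and 1373 and 1413 without, close to the Rbp2-/- arrays without LIF, so the low group was Rbp2-/- with LIF. Ndufa2, an accessory subunit with a thioredoxin-like fold, had the same order. It read 794 and 631 in Rbp2-/- with LIF against 1261 and 1139 without (0.75 ± 0.19, adjusted p = 0.0271), and 1165, 870, 1025 and 1088 on the Rbp2f/f arrays. Both probe sets have an s_at suffix, which marks probes shared by several transcripts.

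**Figure D2:**
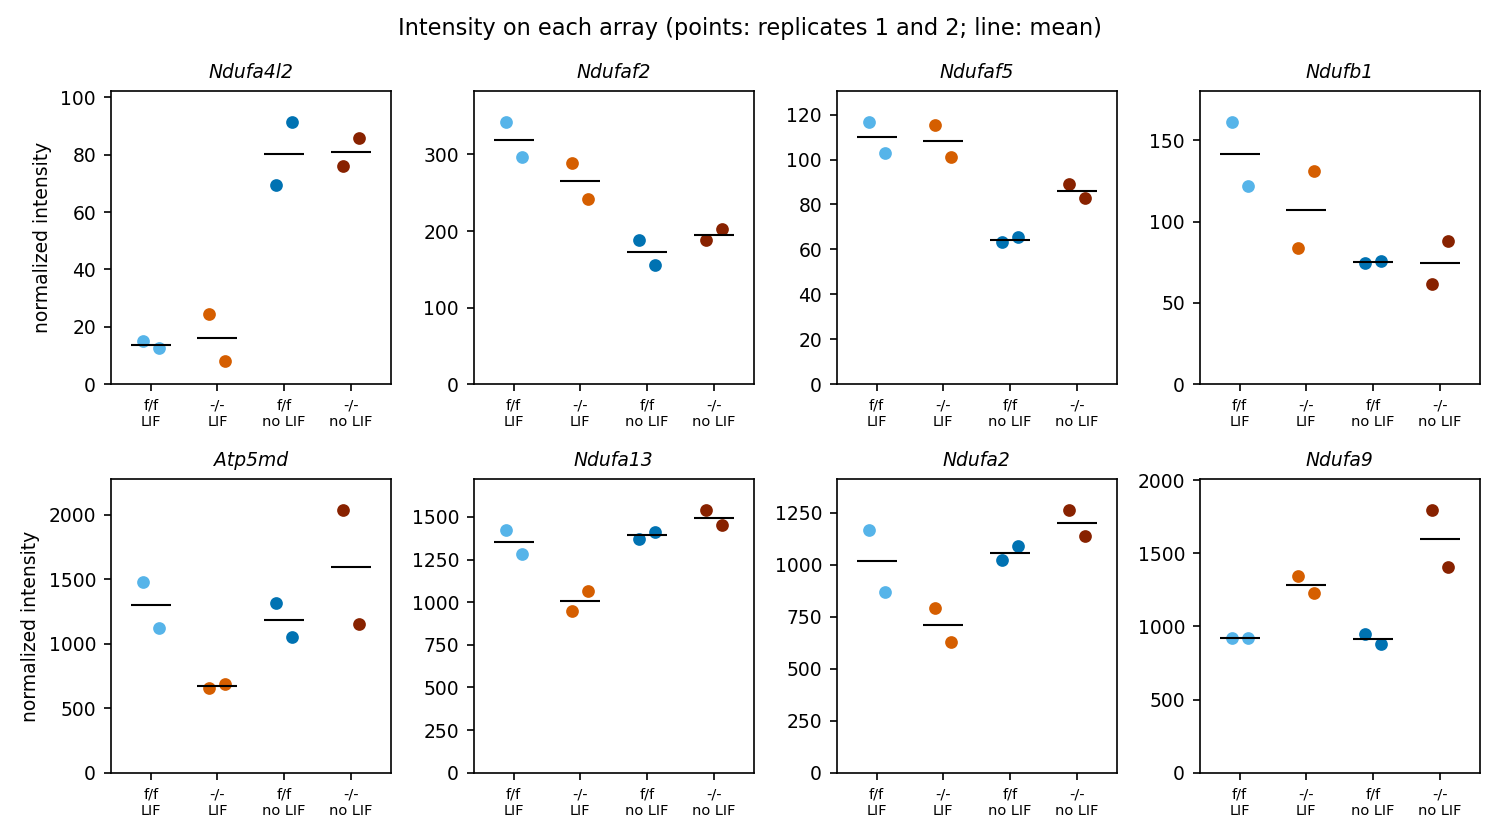
Normalized intensity (y axis, linear from 0) of the 7 called genes and of Ndufa9 on each array; points are replicates 1 and 2, bars their means, and the x axis gives genotype and medium. Ndufa4l2 was high on all 4 arrays without LIF, Atp5md, Ndufa13 and Ndufa2 were lowest in Rbp2-/- with LIF, and Ndufa9 was higher in both Rbp2-/- groups.

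Ndufa9, which helps hold the junction of the complex I arms and has a YY1 motif 30 bases after its start, read 924 and 921 in LIF-grown Rbp2f/f cells and 1343 and 1227 in LIF-grown Rbp2-/- cells. After withdrawal the Rbp2f/f arrays read 946 and 881 and the Rbp2-/- arrays 1792 and 1409. Both Rbp2-/- groups were above Rbp2f/f on every array, by 0.47 ± 0.16 with LIF (adjusted p = 0.266) and 0.79 ± 0.16 without (adjusted p = 0.118), the smallest p of the 86 genes without LIF. The tested core subunits of complex I that are encoded in the nucleus were not called in any comparison on their brightest probe sets. Among them are subunits that carry its flavin and iron-sulfur clusters. On withdrawal in Rbp2f/f, Ndufs1 had -0.32 ± 0.17, Ndufs3 0.05 ± 0.16, Ndufs7 -0.22 ± 0.15, Ndufs8 -0.47 ± 0.16, Ndufv1 -0.51 ± 0.19 and Ndufv2 0.06 ± 0.18. Ndufs8 read 1166 and 971 with LIF and 757 and 774 without in Rbp2f/f, and 960 and 1160 against 786 and 820 in Rbp2-/-. Its arrays did not overlap between media in either genotype, and its adjusted p was 0.0622 and 0.142. Ndufs7, the subunit next to the ubiquinone site, read 692 and 670 against 703 and 710 between genotypes with LIF, and 611 and 557 against 781 and 723 without (0.36 ± 0.15, adjusted p = 0.33).

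Complex II, the succinate dehydrogenase that also works in the tricarboxylic acid cycle, had no called gene among its 4 subunits in any comparison. Sdha, the flavoprotein, stayed between 1024 and 1258 on all 8 arrays. Sdhb, the iron-sulfur subunit, read 1342 and 1350 (Rbp2f/f) and 1396 and 1453 (Rbp2-/-) before withdrawal, and 1306 and 1147 (Rbp2f/f) and 1475 and 1421 (Rbp2-/-) after it. The membrane anchor Sdhc read 554 and 699, 568 and 403, 886 and 699, and 908 and 699 in the same order, with its largest difference on withdrawal in Rbp2-/- (0.72 ± 0.23, adjusted p = 0.0652). The other anchor, Sdhd, read 868 and 969, 1219 and 1744, 1323 and 1203, and 1823 and 1441. Its Rbp2-/- arrays lay above Rbp2f/f in each medium (0.66 ± 0.20 with LIF, adjusted p = 0.227). A dimmer second Sdhd probe set had the opposite sign with LIF (-0.22) and the same sign without (0.43).

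Complex III takes electrons from ubiquinol to cytochrome c, and none of its 8 genes was called on its brightest probe set. Uqcr10, a small subunit near the Rieske protein, read 1179 and 1062 in LIF-grown Rbp2f/f cells and 1651 and 1928 in LIF-grown Rbp2-/- cells. After withdrawal the Rbp2f/f arrays read 1273 and 1204 and the Rbp2-/- arrays 1859 and 2183. The Rbp2-/- arrays were higher in both media, by 0.67 ± 0.15 (adjusted p = 0.157) and 0.70 ± 0.15 (adjusted p = 0.136), and the ratios of mean levels were 1.60 and 1.63. Its other 2 probe sets had differences of 0.70 and 0.80 with LIF and 0.99 and 0.84 without, and neither was called. Uqcrc1, a core protein of the matrix side, read 2078 and 2016 against 2652 and 3314 with LIF (0.53 ± 0.16, adjusted p = 0.223) and 2015 and 2505 against 2638 and 2427 without, where the genotypes overlapped. The Rieske iron-sulfur gene Uqcrfs1 differed by at most 0.34 in any of the 4 comparisons, and the other core protein gene, Uqcrc2, by at most 0.23.

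Complex IV, cytochrome c oxidase, has isoforms used in particular tissues, and none of its 14 tested genes was called on its brightest probe set. Cox7c, a widely used subunit, was under the filter. Cox5a stayed between 3947 and 5194 and Cox5b between 3186 and 3866 over the 8 arrays. Cox4i1, the common form of subunit 4, was higher in Rbp2-/- on every array of each medium, at 3987 and 5150 against 3697 and 3565 with LIF and 3956 and 4269 against 3662 and 3757 without (0.32 ± 0.14 and 0.15 ± 0.14, adjusted p = 0.36 and 0.658). Cox4i2, the form known from lung and from low oxygen, read 29.1, 35.4, 29.5 and 41.6 with LIF, 36.1 and 37.8 in Rbp2f/f without, and 86.5 and 40.3 in Rbp2-/- without, so its high value was 1 array. Cox6b2, a testis form, read 303 and 347 with LIF and 499.6 and 634 without in Rbp2f/f (0.77 ± 0.28, adjusted p = 0.068). In Rbp2-/- it overlapped, at 216 and 378 against 431 and 301. The muscle form Cox7a1 read 80.4 and 59.4 against 44.9 and 44.4 in Rbp2f/f and 67.9 and 43.2 against 40.7 and 41.0 in Rbp2-/-. It was lower without LIF on every array, with an adjusted p of 0.162 and 0.425. The muscle form Cox6a2 stayed between 39.5 and 68.6, and the testis form Cox8c between 163 and 240. Cox7b2, another testis form, was under the filter at 31.6, 19.4, 8.78 and 15.4 with LIF and 4.21, 0.51, 0.68 and 0.53 without. Cox8b was at or under 5.53 on all arrays. Of 7 heart and skeletal muscle markers, between 3 and 6 were under the filter level on each array. Of the 3 tested, Actc1 was called higher on withdrawal in Rbp2f/f (1.35 ± 0.40, limma adjusted p = 0.0332), where 14% of all tested genes were. In Rbp2-/- none of the 3 was called, and Actc1 had -0.85 ± 0.40. With LIF it was higher in Rbp2-/- by 1.73 ± 0.40, which was not called (adjusted p = 0.165).

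Complex V, the ATP synthase, had 1 called gene. Atp5md, a small membrane subunit also known as DAPIT that takes part in joining the synthase into dimers, read 660 and 685 in Rbp2-/- with LIF and 2035 and 1155 without (1.17 ± 0.26, adjusted p = 0.0164). In Rbp2f/f it read 1477 and 1122 with LIF and 1316 and 1056 without. As with Ndufa13 and Ndufa2, the low group was Rbp2-/- with LIF, and the withdrawal and genotype comparisons share those 2 arrays. Against Rbp2f/f with LIF the difference was -0.92 ± 0.26 (adjusted p = 0.208). Atp5e, the epsilon subunit of the central stalk, was also lowest there, at 697 and 841 against 888 to 1350 on the other 6 arrays (-0.65 ± 0.18 with LIF, adjusted p = 0.2). The subunits of the catalytic head differed little: Atp5a1 stayed between 3521 and 4840, Atp5b between 4755 and 5764 and Atp5c1 between 2245 and 3226. The 3 genes of the c ring, Atp5g1, Atp5g2 and Atp5g3, encode the same mature protein. Atp5g1 read 1308 and 1282, 2067 and 1040, 1054 and 915, and 1052 and 909 in the order of groups used above, and none of the 3 was called.

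Over all complexes, the 19 nuclear-encoded subunits listed here as catalytic or core were called in no comparison on their brightest probe sets. Subunits encoded in mitochondrial DNA are not among the 19, and ND5, which was called, is given below. A dimmer probe set of Ndufv2 that was called is given below. On the brightest probe sets, the 95% interval lay within 1 log2 unit of 0 for 18 or 19 subunits in each of the 4 comparisons. Higher in Rbp2-/- were 15 of the 19 with LIF and 17 without, against 48.8% of all tested genes in each, and these counts were not tested. Genotype differences in the 2 media share no array. Over the 86 genes they correlated at r = 0.16 (50 of 86 with the same sign), and over all tested genes at 0.16. Arrays of the genotypes did not overlap in both media in the same direction for 10 genes. Higher in Rbp2-/- were Cox4i1, Ndufa4, Ndufa9, Ndufb2, Ndufs7, Sdhb, Sdhd and Uqcr10, 9.3% of the 86 against 6.71% of all tested genes. Lower were Atp5pb and Ndufb7, 2.33% against 7.02%.

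**Figure D3:**
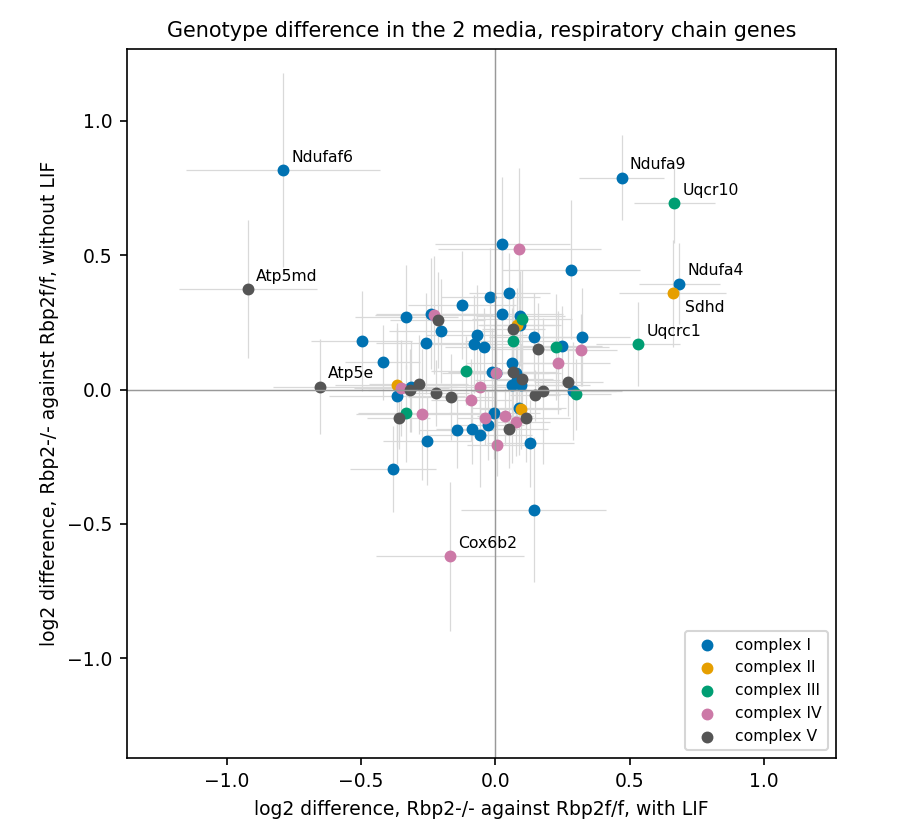
Log2 difference of Rbp2-/- against Rbp2f/f with LIF (x axis) and without LIF (y axis) for the 86 tested genes, coloured by complex, with SE bars. Ndufa9, Uqcr10, Ndufa4 and Sdhd lie to the upper right, Atp5md and Ndufaf6 to the upper left, and no gene was called on either axis.

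The withdrawal differences of the 2 genotypes also share no array. They correlated at r = 0.53 over the 86 genes, 0.38 without Ndufa4l2, and 0.74 over all tested genes. Arrays with and without LIF did not overlap in both genotypes for 11 genes that were higher without LIF (12.8% of 86, against 19.2% of all) and 5 that were lower (5.81%, against 20.6%). The higher ones were Ndufa4l2, Ndufa3, Ndufab1, Ndufb7, Ndufb8, Ndufs5, Sdhc, Uqcrh, Cox5b, Cox6b1 and Cox8a, and the lower ones Ndufaf2, Ndufaf5, Ndufs1, Ndufs8 and Cox7a1. The test of whether withdrawal acted differently in the 2 genotypes called none of the 86 genes and none of all tested genes by limma (background 0%), with 5 and 1214 at an unadjusted p under 0.05. Atp5md had the smallest p, with a difference of differences of 1.30 ± 0.36 (adjusted p = 0.358), followed by Ndufaf6 (1.61 ± 0.51, adjusted p = 0.387). A gene called in 1 genotype alone is therefore not shown to differ between them.

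**Figure D4:**
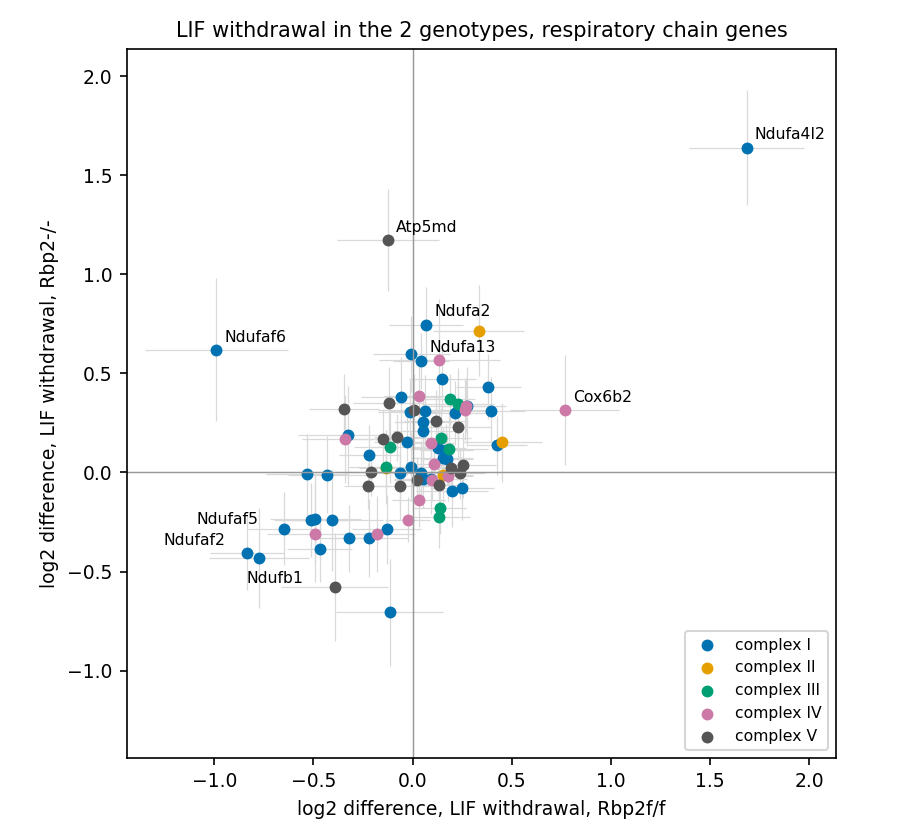
Log2 difference on LIF withdrawal in Rbp2f/f (x axis) and Rbp2-/- (y axis) for the 86 tested genes, coloured by complex, with SE bars. Ndufa4l2 stands apart at the upper right with 1.69 and 1.64, Atp5md lies high in Rbp2-/- alone (1.17 against -0.13), and most genes lie within 0.5 of 0 on both axes.

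Other genes that serve the chain were read from lists of assembly factors, carriers, enzymes and regulators. None was called between genotypes in either medium, where no tested gene at all was called. Without LIF, 63 of 76 mitochondrial ribosome genes were higher in Rbp2-/- (median 0.28), against 48.8% of all tested genes. So were 10 of 12 tricarboxylic acid cycle genes (0.34), 12 of 15 biogenesis regulators (0.20), 20 of 33 assembly factors (0.06) and 6 of 12 carriers (-0.02). These counts were not tested. Among 15 tested regulators of mitochondrial biogenesis, 6 fell and 1 rose on withdrawal in Rbp2f/f (median -0.54), where 13.2% of all tested genes fell and 14% rose. In Rbp2-/- 1 of the 15 rose (6.67%, against 7.28% of all tested genes) and the median was -0.24. Nrf1, the factor whose motif is printed above, read 363 and 358 with LIF and 156 and 142 without in Rbp2f/f (-1.19 ± 0.21, adjusted p = 0.00473). In Rbp2-/- it read 394 and 291 with LIF and 267 and 197 without, and was not called. Of the 6 genes with the exact NRF1 motif, the differences on withdrawal in Rbp2f/f were -0.65 for Ndufaf5, which was called, and -0.12 for Ndufaf4, 0.13 for Uqcrc1, 0.18 for Cox6a1, 0.23 for Atp5g2 and 0.01 for Atp5k, which were not. Ssbp1, the mitochondrial single-strand DNA-binding protein, fell by 1.06 log2 units in Rbp2f/f (SE 0.23, adjusted p = 0.0112). Polg, the mitochondrial DNA polymerase, rose in both genotypes (0.77 ± 0.22 and 1.20 ± 0.22, adjusted p = 0.0295 and 0.00761).

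The mitochondrial ribosome, which translates the subunits encoded in mitochondrial DNA, had 17 of 76 tested genes lower and 1 higher in Rbp2f/f (median -0.35), against 13.2% lower and 14% higher among all tested genes. In Rbp2-/- 7 were lower (9.21%), near the 8.24% of all tested genes, and the median was -0.12. Mrpl47 and Mrpl15 had the smallest p in Rbp2f/f (-1.08 ± 0.18 and -1.04 ± 0.19, adjusted p = 0.00341 and 0.00455), and Mrps18b (-1.11 ± 0.19, adjusted p = 0.0049) and Mrpl4 (-0.72 ± 0.16, adjusted p = 0.0165) in Rbp2-/-. Of 33 assembly factors of other families, 4 fell and 2 rose in Rbp2f/f (18.2% called, against 27.2% of all tested genes), and 1 fell and 1 rose in Rbp2-/- (6.06% against 15.5%). Ecsit, which takes part in complex I assembly, fell in both (-1.20 ± 0.21 and -0.91 ± 0.21, adjusted p = 0.00407 and 0.0184), Lrpprc, which stabilises mitochondrial mRNA, fell in Rbp2f/f (-0.96 ± 0.19, adjusted p = 0.00642), and Coa5, a complex IV factor, rose in both (0.66 ± 0.18 and 0.94 ± 0.18, adjusted p = 0.027 and 0.00993). Among 12 electron carriers and nucleotide exchangers, 2 rose and 2 fell in Rbp2f/f (33.3% called, against 27.2% of all tested genes) and 1 rose and 1 fell in Rbp2-/- (16.7% against 15.5%). The ADP/ATP exchangers went opposite ways in both genotypes: Slc25a4 rose (0.57 ± 0.12 and 0.53 ± 0.12, adjusted p = 0.00979 and 0.0193) and Slc25a5 fell (-0.48 ± 0.12 in each, adjusted p = 0.0164 and 0.0246). Of 12 tricarboxylic acid cycle genes, 16.7% were called in Rbp2f/f and 8.33% in Rbp2-/-, below the same shares of all tested genes: citrate synthase Cs rose (0.54 ± 0.15, adjusted p = 0.0248) and Idh3g fell (-0.53 ± 0.16, adjusted p = 0.0385) in Rbp2f/f, and Dlst rose in Rbp2-/- (0.58 ± 0.16, adjusted p = 0.0406).

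**Figure D5:**
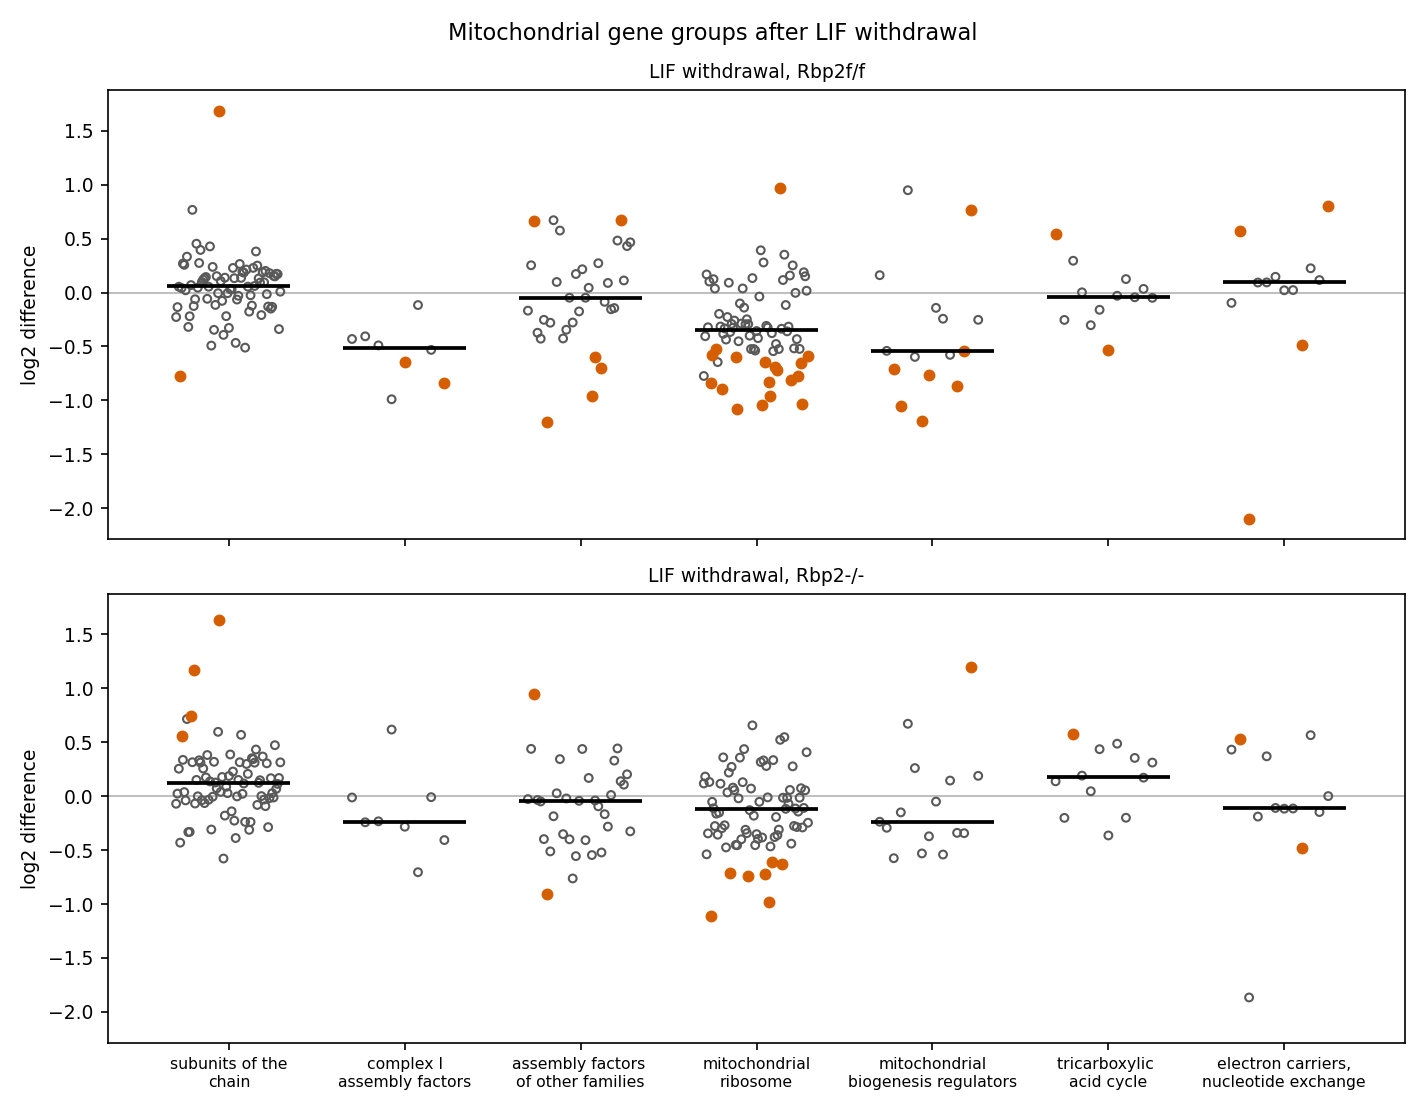
Log2 difference on LIF withdrawal (y axis) of the 78 subunit genes of the chain, the 8 complex I assembly factors and 5 other mitochondrial gene lists (x axis) in Rbp2f/f (top) and Rbp2-/- (bottom); each circle is 1 gene, filled circles are called and bars are medians. The mitochondrial ribosome and the biogenesis regulators lie mostly below 0 in Rbp2f/f (medians -0.35 and -0.54), while the subunits centre near 0.

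Only ND5 of the 13 protein genes of mitochondrial DNA had a probe set under its own symbol, and it was picked out after its values were seen. This complex I subunit read 583 and 977 (Rbp2f/f) and 1183 and 1043 (Rbp2-/-) before withdrawal, and 1893 and 1841 (Rbp2f/f) and 1436 and 1626 (Rbp2-/-) after it. It rose on withdrawal in Rbp2f/f (1.29 ± 0.22, limma adjusted p = 0.0041) and was not called in Rbp2-/- (0.46 ± 0.22, adjusted p = 0.197), and the difference between the genotypes was not called (adjusted p = 0.42).

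Where a gene had several probe sets, they did not always run alike. In a fit over all probe sets, 151 of the 179 were tested, of which 3 rose and 3 fell in Rbp2f/f (22.4% of all probe sets called) and 5 rose in Rbp2-/- (11.6%). Of 65 tested probe sets that were not the brightest of their gene, 44 had the sign of the brightest one on withdrawal in Rbp2f/f and 52 in Rbp2-/-. Dimmer probe sets of Cox6b1 (0.49, adjusted p = 0.0326) and Ndufb11 (0.52, adjusted p = 0.0346) rose and one of Ndufv2 fell (-0.65, adjusted p = 0.0417) in Rbp2f/f, and one of Uqcrh rose in Rbp2-/- (0.47, adjusted p = 0.0457), where the brightest probe set of each was not called. Each of the 8 genes in the plot of intensity on each array has a single probe set under its own symbol alone. A further probe set that names Ndufa13 together with Yjefn3 was among those left out and was not read.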

How the data were processed

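RNA from mouse ES cells was measured on 8 Affymetrix mouse genome 430 2.0 arrays, from 6 ug of total RNA each, per the labels' protocols. The deposited intensities are linear values per probe set, made by the authors; for the software, background correction and scaling, nothing is given in the sources used here. They ran from 0 to 11476.5, with 39 values of 0, and no detection calls were used here. Their number, 2 arrays a group, limits the precision.

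Symbols came from the platform annotation table, in which 34958 probe sets had 1 symbol, 932 several and 9211 none, and all 179 member probe sets matched RefSeq by gene identifier. Intensities were quantile-normalized, 16 was added, log2 was taken, the brightest of a gene's probe sets on average was kept, and genes under the 40th percentile (28.3) were left out. limma 3.58.1 (R 4.3.3) fitted 4 group means over all 8 arrays with a trended prior (4 residual and 5.3 prior degrees of freedom), with 2-sided p-values adjusted by Benjamini-Hochberg over 10916 genes. Ratios of mean levels use normalized intensity without the added 16. The fit was tested on simulated data.

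Replicate numbers were not taken to pair the arrays: the labels do not say that they do, and deviations of same-numbered arrays correlated above 0.1 (0.25 to 0.27) for 3 of 6 group pairs and between -0.07 and 0.00 for the 3 pairs with LIF-grown Rbp2f/f. Members, gene lists and tests were chosen with earlier results of these data known. Named genes were Kdm5a, the called members (up to 10 a direction), the 5 members of smallest p where none was called, the core subunits, isoform families and complex II, and from each other list the 2 genes of smallest p. Other genes named for a position in the text were chosen after their values were seen. Alternatives covered normalization, filter, added constant, probe set choice, variance model, threshold, replicate block, arrays in the fit and leaving out each array.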

Additional observations from a re-analysis of the deposited data

How the results depend on the processing

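Ndufa4l2 was called higher on LIF withdrawal in both genotypes under all 21 alternatives that could be run for it (adjusted p at most 0.0487 and 0.042), but it entered the test only through its arrays without LIF, so this says little of stability. No respiratory chain gene was called between genotypes with LIF or for the difference in withdrawal response under any alternative. Without LIF, 2 genes were called with array weights (Ndufa9 and Uqcr10, 225 genes in all) and 0 otherwise. The 4 calls of withdrawal in Rbp2f/f became 2 with intensities as deposited (Ndufa4l2 and Cox6b2), 1 with the filter at the 60th percentile, 8 with array weights, 1 at an adjusted p under 0.01 and 7 with only the 4 arrays compared. Leaving out each array gave 1 to 8 calls: 1 without LIF-grown Rbp2f/f replicate 1 or withdrawn Rbp2f/f replicate 2, 2 without the other array of either group, and 8 without either LIF-grown Rbp2-/- array. The 4 calls in Rbp2-/- became 14, all higher, with intensities as deposited, where 22.9% of all tested genes were called. They became 1 at an adjusted p under 0.01 and 2 with only the 4 arrays compared, and leaving out each array gave 1 to 5, with 1 when withdrawn Rbp2-/- replicate 1 was left out, 2 without withdrawn Rbp2-/- replicate 2, either withdrawn Rbp2f/f array or LIF-grown Rbp2-/- replicate 1, and 5 without LIF-grown Rbp2-/- replicate 2. The replicate block gave 7 calls in Rbp2-/- (Ndufb3, Ndufc1 and Sdhc added), the same 4 in Rbp2f/f and 0 between genotypes. The replicate numbers share only a number, and this block changed no other count of respiratory chain calls, though 3 and 30 of all tested genes were then called between genotypes with and without LIF. The cause of these changes was not tested.

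Of the other calls, Ndufb1 was lost in 16 of 22 alternatives, Ndufaf5 in 9 of 21, Ndufa13 in 8 of 22, Ndufa2 in 7 of 22, Ndufaf2 in 4 of 22 and Atp5md in 3 of 22, and none changed sign. Scaling moved the share of all calls that were higher from 51.6% to 65.5% as deposited in Rbp2f/f, and from 46.9% to 85.4% in Rbp2-/-. The median over all tested genes was then 0.06 and 0.38.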
